A study of Mus musculus with 4 samples.

Results

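The kinases of the mitogen-activated protein (MAP) kinase cascades were described across 4 polyA RNA-seq libraries of mouse bone-marrow-derived macrophages (BMDM), which develop when marrow cells are cultured. Members were chosen by name: every gene whose symbol is Mapk, Map2k, Map3k or Map4k followed by a number alone, and that has a protein-coding transcript. This gave 43 of the 55536 Ensembl genes in the tables, of which 13 are MAP kinases (MAPK), 7 are MAPK kinases (MAP2K), 18 are kinases of those (MAP3K) and 5 are MAP4K. Cascade kinases that carry other names, such as Araf, are outside that rule and are given as a pathway list further on.

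The 4 libraries are 1 group of C57BL/6J BMDM numbered as biological replicates 1 to 4. Their descriptions give 12 h with 100 ng/mL Lipid A, the TLR4-binding anchor of lipopolysaccharide, then a washout of 12 h, then 60 min with the same dose again. Elsewhere the labels name lipoprotein A instead and omit the washout, so they differ on both points. The characteristics list the same donor record for all 4 libraries, with age and sex not collected, and nothing says whether the cultures came from separate animals, so any p-value measures only the spread between these libraries. No unexposed or once-exposed cells are in the group, and no effect of the exposures can be read from the levels below.

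In these cascades a MAP4K or another upstream signal activates a MAP3K, which phosphorylates a MAP2K, which in turn phosphorylates a MAPK on a threonine and a tyrosine of its activation loop. In macrophages the receptor TLR4 signals through the MAP3K TAK1 (Map3k7) to JNK and p38, and through the MAP3K TPL2 (Map3k8) to the ERKs. The active MAPKs phosphorylate transcription factors and further kinases that control inflammatory genes and the stability of their mRNAs. Activity of these kinases is set largely by phosphorylation, which RNA levels do not measure.

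The activation loop is the stretch that tells the MAPK families apart, and its coding sequence is shown for 6 detected MAPKs and for Mapk11. Each runs 5′ to 3′ from the codons of the conserved Asp-Phe-Gly motif, with the phosphorylation motif in capitals, and was read from GENCODE M21 transcripts on mm10. Capitals encode Thr-Glu-Tyr in the ERKs, Thr-Pro-Tyr in the JNKs, Thr-Gly-Tyr in the p38 kinases and Ser-Glu-Gly in the atypical kinase ERK3 (Mapk6).
Mapk3 (ERK1), exon 4, chr7:126763404-126763466, plus strand: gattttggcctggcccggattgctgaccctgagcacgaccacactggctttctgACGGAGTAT
Mapk7 (ERK5), exon 4, chr11:61491422-61491487, minus strand: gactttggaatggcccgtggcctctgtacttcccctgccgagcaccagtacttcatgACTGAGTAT
Mapk9 (JNK2), exon 5, chr11:49872788-49872838, plus strand: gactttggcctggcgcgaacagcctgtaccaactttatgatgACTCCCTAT
Mapk8 (JNK1), exon 6, chr14:33393003-33393053, minus strand: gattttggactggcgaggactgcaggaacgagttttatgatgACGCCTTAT
Mapk14 (p38α), exon 7, chr17:28728363-28728407, plus strand: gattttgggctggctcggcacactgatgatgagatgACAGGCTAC
Mapk11 (p38β), exon 7, chr15:89145866-89145910, minus strand: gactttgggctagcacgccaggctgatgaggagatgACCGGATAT
Mapk6 (ERK3), from exon 2 into exon 3, chr9:75395637-75397623 with the intron left out, minus strand: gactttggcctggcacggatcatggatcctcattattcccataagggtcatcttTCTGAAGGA
The stretches of Mapk9 and Mapk8 shared 38 of 51 bases, and those of Mapk14 and Mapk11 35 of 45.

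Depth came to between 23167140 and 41453162 expected counts on genes per library, and a count of 0 allowed between 0.0724 and 0.129 CPM (a count scaled by library size), which covers counting error only. Levels are given in TPM, a measure that adjusts for transcript length and depth and was scaled by the authors, and errors are the SD over the 4 libraries. All 10 macrophage markers fixed for this work were detected, and they summed to between 17144 and 20134 TPM. Of 10 neutrophil markers 2 were detected, S100a8 and S100a9, Ly6g and Retnlg had no count, and the list summed to 133, 13.1, 106 and 12.7 TPM in replicates 1 to 4. No T cell (6 genes), mast cell and basophil (5) or stromal marker (5) was detected, and 1 of 5 B cell markers (Cd79b) and 1 of 5 dendritic cell markers (Ccr7) were. Ribosomal RNA genes held 7.14% of TPM in replicate 1 and between 1.29% and 2.73% in the other libraries.

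At 1 TPM or more in each library, which counts here as detected, 29 of the 43 kinases were present, where 44.1% of all protein-coding genes and 18.7% of all Ensembl genes passed that level. By tier these were 7 of 13 MAPKs, 6 of 7 MAP2Ks, 12 of 18 MAP3Ks and 4 of 5 MAP4Ks. Of the 14 others, Mapk4, Mapk10, Mapk15 and Map3k21 had no count in any library. Map2k6 and Map4k1 fell below 1 TPM in replicate 1 alone. Mapk11, Map3k6, Map3k9 and Map3k15 lay near the threshold, at means from 0.67 to 0.98 TPM, and Mapk12, Mapk13, Map3k13 and Map3k19 at means from 0.03 to 0.15 TPM. The median detected protein-coding gene stood at 18.4 TPM, and 15 of the kinases had a mean above it. Summed TPM fell along the cascade from its last tier to its first: 379 ± 33.2 TPM for the MAPKs, 228 ± 23.5 TPM for the MAP2Ks, 197 ± 13.9 TPM for the MAP3Ks and 58.8 ± 4.33 TPM for the MAP4Ks. The median member of a tier followed another order, with log2(TPM + 0.1) of 4.43 ± 0.08 for MAP2K, 3.11 ± 0.15 for MAPK, 2.50 ± 0.33 for MAP4K and 2.29 ± 0.28 for MAP3K.

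**Figure D1:**
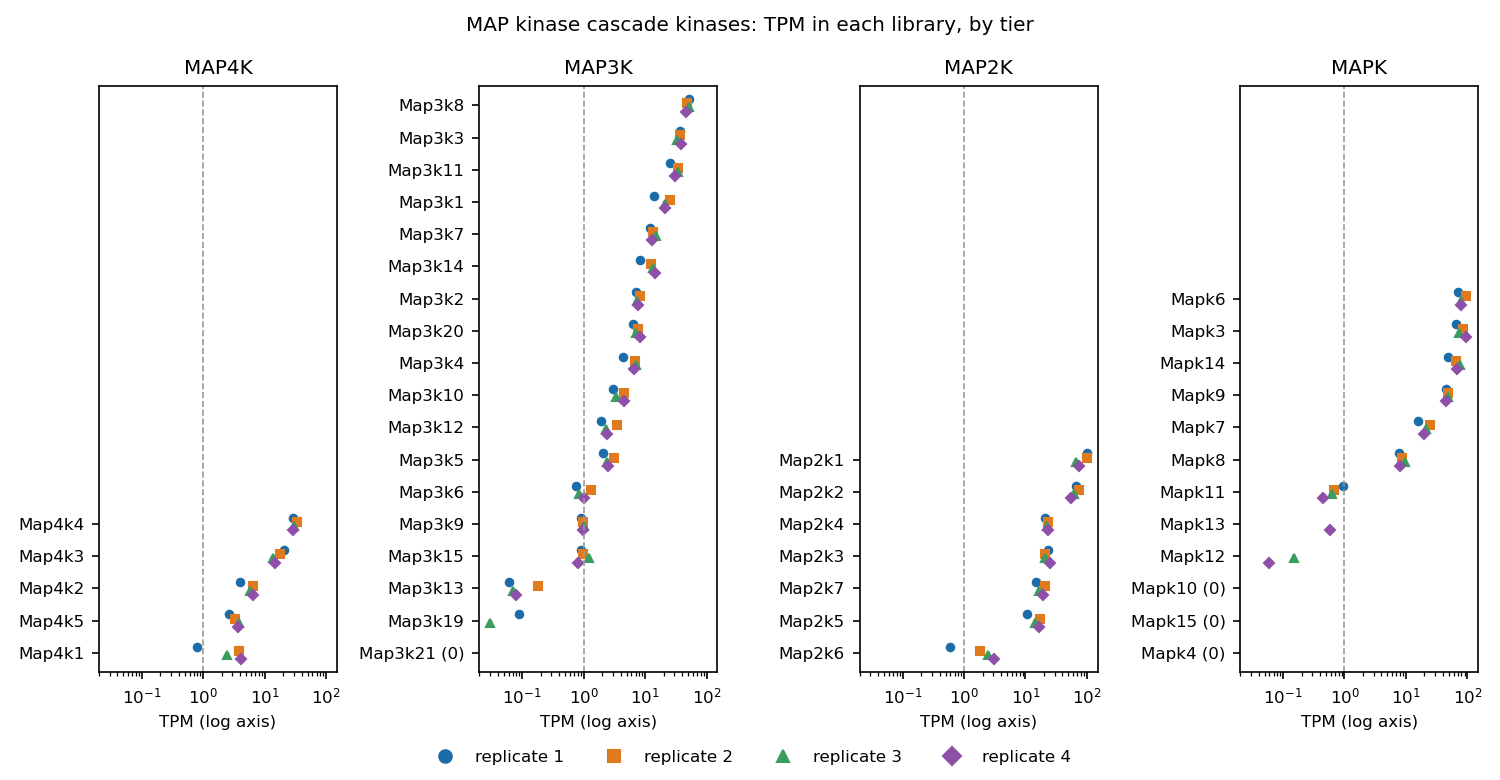
TPM (log axis) of 42 members in each library, in panels by tier and ordered by mean within a tier; the dashed line marks 1 TPM and (0) marks members without a count. Points of a detected member lie close together, while Map4k1 and Map2k6 spread over a wider range with replicate 1 lowest.

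Among the MAPKs, Mapk6 and Mapk3 had the highest means. Mapk6, which encodes ERK3, an atypical MAPK that no MAP2K is known to phosphorylate, had 71.2, 96.1, 79.6 and 79.95 TPM in replicates 1 to 4. Mapk3 (ERK1) had 66.1, 85.8, 73.1 and 94.2 TPM. Their ranges overlapped, so their order is not resolved. ERK5 (Mapk7), an unusually large MAPK with a C-terminal tail, stood lower, at 20.4 ± 3.72 TPM (15.8 to 24.7).

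The p38 and JNK families were each carried mainly by a single gene. Mapk14, the p38 kinase best known from inflammatory signalling, averaged 64.3 ± 11.3 TPM (48.8 to 75.3) and exceeded Mapk11 by 51.9- to 152-fold in every library, although Mapk11 rested on 23 to 41 counts. Mapk12 and Mapk13 (p38γ and p38δ) had at most 4 and 5 counts in a library. Of the JNKs, Mapk9 had 44.4, 48.8, 48.0 and 45.0 TPM and Mapk8 had 7.72, 8.54, 9.79 and 8.13 TPM. Mapk9 was higher in 4 of 4 libraries, by 5.48 ± 0.39-fold, and the ranges did not overlap. Mapk10 (JNK3), known mostly from brain, had no count.

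The MAP2Ks were led by the kinases that activate the ERKs. Map2k1 (MEK1) had 98.8, 101, 66.9 and 73.2 TPM in replicates 1 to 4 and was the highest of all 43 members in the mean, at 84.8 ± 17.3 TPM. That rank is not resolved, since Map2k1 exceeded Mapk6, the next in the mean, in only 2 of 4 libraries. In the second quantification by the authors, described below, Map2k1 averaged 65.6 ± 3.46 TPM and was not the highest, with Mapk6 at 69.1 ± 12.9 TPM. Map2k2 (MEK2) had 67.3, 73.0, 60.6 and 54.3 TPM. Map2k1 exceeded Map2k2 in 4 of 4 libraries, by 1.32 ± 0.16-fold, although their ranges overlapped. Map2k4 (MKK4), which phosphorylates JNKs, had 21.1, 23.6, 22.8 and 23.3 TPM and exceeded Map2k7 (MKK7), the other JNK activator, by 1.29 ± 0.12-fold, with the order the same in 4 of 4 libraries. Of the p38 activators, Map2k3 (MKK3) averaged 22.5 ± 2.19 TPM and lay 8.36- to 39.0-fold above Map2k6 (MKK6). Map2k5 (MEK5), the activator of ERK5, averaged 14.7 ± 3.14 TPM.

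Levels were also summed over the activating and the activated kinases of the p38, JNK and ERK5 modules, and other modules are not reported here. For p38 the MAP2Ks Map2k3 and Map2k6 summed to 24.4 ± 2.66 TPM against 65.2 ± 11.2 TPM for the MAPKs, and the libraries did not overlap. The JNK sums were 40.5 ± 3.47 TPM for the MAP2Ks Map2k4 and Map2k7 and 55.1 ± 2.88 TPM for MAPKs, again without overlap. Map2k4 was counted with JNK alone, and the p38 and JNK values hold for that assignment only. For ERK5 the values were 14.7 ± 3.14 TPM and 20.4 ± 3.72 TPM, and their ranges overlapped. These are sums of RNA levels of different genes and give no ratio of proteins.

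**Figure D2:**
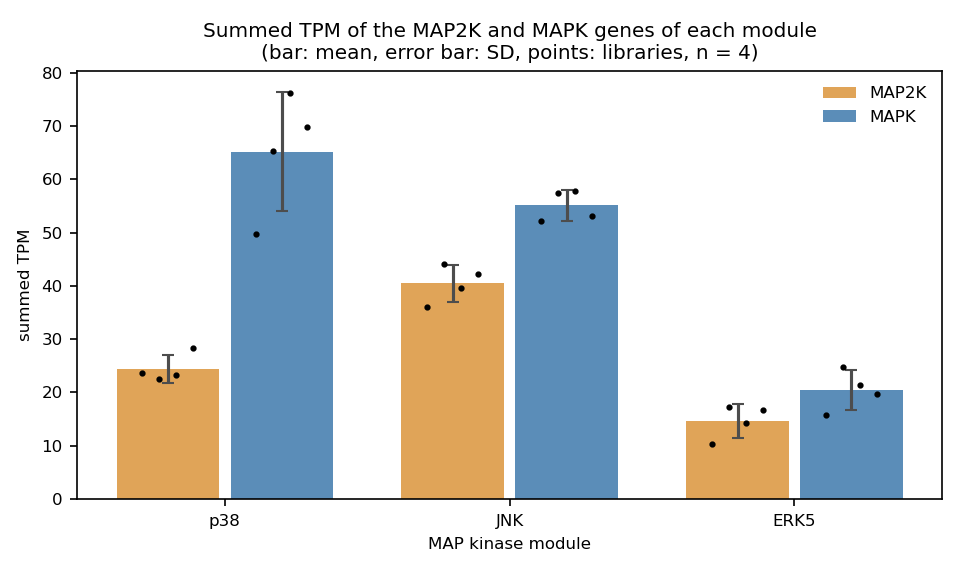
Summed TPM of the MAP2K genes and of the MAPK genes of the p38, JNK and ERK5 modules; bars are means, error bars the SD and points the 4 libraries. With Map2k4 counted under JNK alone, the MAPK bar lies above the MAP2K bar in each, by most for p38 (65.2 and 24.4 TPM). The points of the ERK5 pair overlap.

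Among the 18 genes named Map3k, Map3k8 was the highest. It encodes TPL2, the kinase through which TLR4 reaches MEK1 and MEK2 in macrophages, and had 52.8, 48.2, 51.6 and 46.0 TPM. Map3k3 (MEKK3) followed with 36.9, 37.4, 33.6 and 37.9 TPM, below Map3k8 in 4 of 4 libraries. Map3k11 (MLK3), a mixed-lineage kinase upstream of JNK, had 25.6, 34.8, 34.7 and 31.1 TPM. Map3k7, which encodes TAK1, averaged 13.3 ± 1.25 TPM and ranked below Map3k1 (MEKK1), at 20.5 ± 4.70 TPM. Map3k14, which encodes NIK of the non-canonical NF-κB pathway, averaged 12.2 ± 2.80 TPM, with 8.27 TPM in replicate 1 and 12.6 to 14.8 TPM in the others. Map3k2, Map3k20 and Map3k4 had means of 7.63, 7.38 and 6.22 TPM.

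The lowest detected MAP3Ks included kinases better known from neurons. Map3k10 (MLK2) had 2.97, 4.50, 3.35 and 4.54 TPM, and Map3k12 (DLK), known from axon injury signalling, had 1.92, 3.43, 2.33 and 2.41 TPM. Map3k5 (ASK1), a stress-activated MAP3K, averaged 2.52 ± 0.45 TPM and could not be ranked against Map3k12. Some of these values carry a limit from neighbouring genes, because 19.3% of the exonic bases of Map3k12 lie opposite Pcbp2 or Gm10337 and 14.8% of those of Map3k10 lie opposite Ttc9b. For Map3k11 that share was 11.8% (Pcnx3 and AC134563.1), and 35.2% of the exonic bases of Map2k7 are shared with Gm49320 on the same strand. The sources used here do not state whether the libraries keep strand, so reads from such stretches may belong to either gene.

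Among the MAP4Ks, Map4k4 (HGK), a kinase upstream of JNK, had 28.5, 33.9, 29.6 and 28.7 TPM and made up 51.3% of the summed TPM of its tier. Map4k3 (GLK), known for a role in T cell receptor signalling and nutrient sensing, had 20.8, 17.7, 13.7 and 14.9 TPM, with replicate 1 highest. Map4k2 had 3.96, 6.39, 5.88 and 6.45 TPM, and Map4k5 averaged 3.39 ± 0.53 TPM. Map4k1 (HPK1), a kinase of blood cells, had 0.80, 3.78, 2.40 and 4.12 TPM. Replicates 1 and 3, the lowest for Map4k1, were those with the higher neutrophil marker sums given above, and the part of that difference in its level was not tested.

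Ordered by mean, the 29 detected kinases formed a run in which most neighbours could not be separated. Of 28 neighbouring pairs, 25 had overlapping ranges. The 3 gaps lay between Map2k2 and Map3k8, between Mapk9 and Map3k3, and between Map4k4 and Map2k4. The levels differed far less between libraries than between genes: the highest library exceeded the lowest by 1.10- to 1.80-fold, with a median of 1.37-fold, over the detected kinases. The coefficient of variation (CV) in TPM was under 25% for 28 of them and under 10% for 9, among them Mapk9, Map3k3, Map3k8 and Map4k4. The same counts were not made over all detected genes, so they do not set the kinases apart from other genes. Asking for detection in each library also left out Map2k6 and Map4k1, whose highest library exceeded the lowest by 5.14- and 5.15-fold.

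Replicate 1 was the lowest library for 22 of the 29 detected kinases, or 75.9%, where it was the lowest for 48.4% of all detected genes. Replicates 2, 3 and 4 were lowest for 1, 4 and 2 kinases. The kinases for which replicate 1 stood farthest down included Map3k14, Map3k1 and Map4k2, while Map4k3 and Map3k8 were highest there. Replicate 1 was also the library with the largest share of ribosomal RNA, given above, and the part of that share in these levels was not tested.

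**Figure D3:**
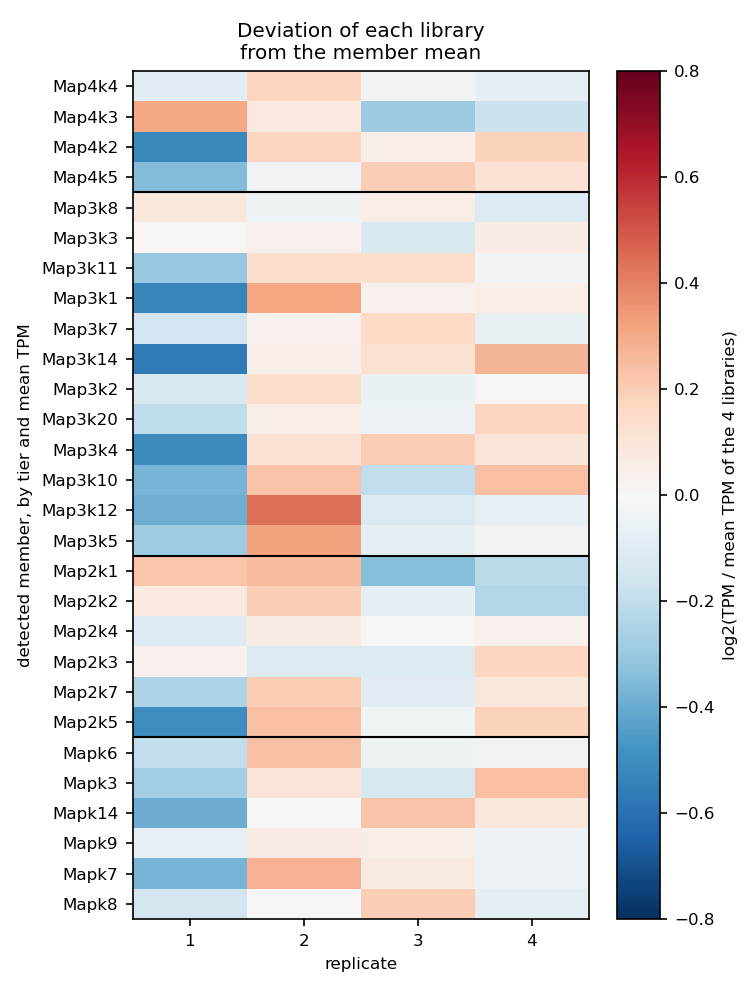
Difference of each library from the mean of the member, as log2 of TPM over that mean, for 28 detected kinases ordered by tier and mean. The column of replicate 1 is mostly blue (lowest in 22 of 28), while Map2k1 is higher in replicates 1 and 2 and Map4k3 highest in replicate 1.

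To find out which kinases differed between libraries by more than genes of like abundance do, the deviance of each gene was tested against the edgeR dispersion trend. None of the 36 kinases tested was called at an adjusted p of 0.05, where 2.61% of all 11679 tested genes were (305 genes). At an unadjusted p under 0.05 there were 2 kinases, Map4k1 and Map2k6, where 7.79% of all genes passed, and with the dispersion trend of DESeq2 none was called either. Map4k1 had the lowest adjusted p by edgeR, 0.13, with a CV in CPM of 52.7% over the 4 libraries, where the trend at its abundance was 28.2%. The trend value is the square root of the fitted dispersion and leaves out counting error, which a CV in CPM includes. Map2k6 had 0.59, 1.79, 2.49 and 3.03 TPM, a CV of 52.2% and an edgeR adjusted p of 0.33, on 18 to 132 counts. Map4k3 came next with an edgeR adjusted p of 0.85. The median CV in CPM was 12.9% over the 36 kinases and 15.8% over all tested genes. The CV lay under the trend for 29 of the 36 kinases and for 70.3% of all tested genes.

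**Figure D4:**
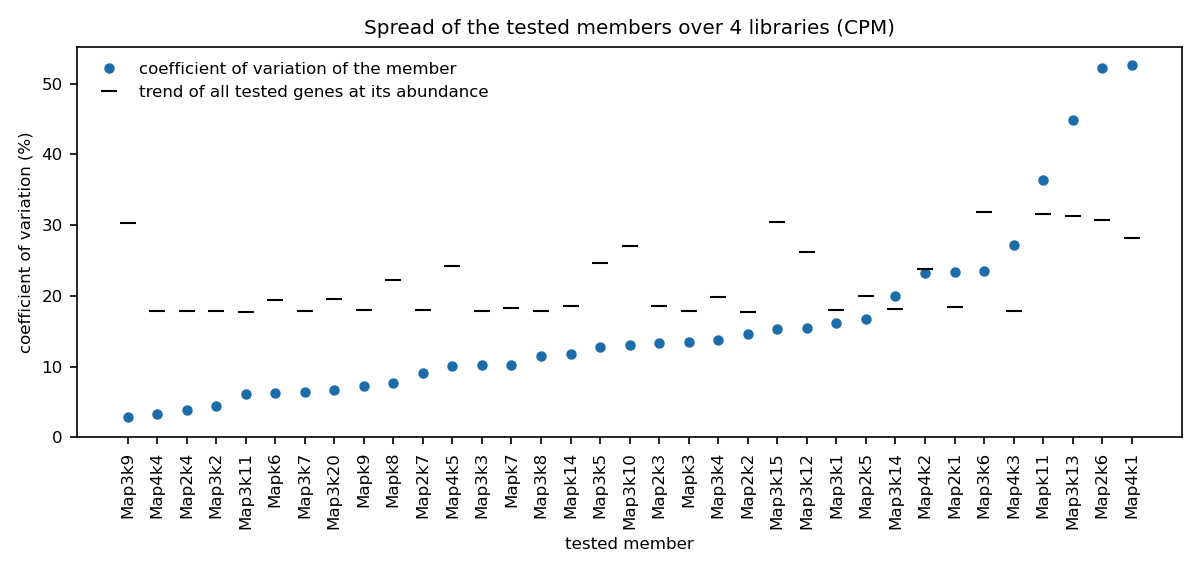
CV in CPM over the 4 libraries for 35 of the tested kinases (points), ordered by CV. Dashes give the square root of the dispersion trend of all tested genes at the same abundance, which leaves out counting error. Points lie under the dashes for 28 of 35, and Map4k1 and Map2k6 stand highest, at 52.7% and 52.2%.

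By the deposited records, replicates 3 and 4 come from 4 read files each and replicates 1 and 2 from 6 each, a technical split that was tested as such. By edgeR's quasi-likelihood test with an adjusted p of 0.05, 0 of the 36 kinases were called in either direction, and the background was 0 of 12667 genes, or 0%. At an unadjusted p under 0.05 this test gave 3 kinases, each lower with 4 read files, where 2.65% of all genes were higher and 4.43% lower at that level. DESeq2 called 103 genes, and no kinase among them. Map2k1 had the lowest p, with a log2 difference of -0.55 (SE 0.17, edgeR adjusted p 0.64), and its levels of 66.9 and 73.2 TPM in replicates 3 and 4 did not overlap the 98.8 and 101 TPM in replicates 1 and 2. Map4k3 had -0.54 (SE 0.21, edgeR adjusted p 0.68) and Map2k2 had -0.35 (SE 0.14, edgeR adjusted p 0.70), likewise without overlap in TPM. With 2 libraries on each side and 1 technical record, that split cannot be told apart from any other difference between these pairs of libraries.

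The authors quantified each library in another way too, directly from the reads, which shows how far a level depends on the method. Over transcripts in both quantifications, the second minus the first gave a median of -0.29 on the log2(TPM + 0.1) scale over all genes. The median over the 31 kinases tested was -0.28, and the cause of this shift was not tested. By limma, at an adjusted p of 0.05 and a difference of at least 1 log2 unit, 0 of 31 kinases were called, where 10.5% of 12299 genes were, 7.42% higher and 3.07% lower in the second. The differences of the kinases ran from -0.38 for Mapk3 to 0.21 for Map3k7, and 30 of 31 were below 0. Unadjusted, 7 kinases had a limma p under 0.05, where 6453 of the 12299 genes did, and leaving out a library moved the number of kinases to between 0 (without replicate 1) and 18 (without replicate 3). Map3k7 (TAK1) averaged 15.5 ± 1.61 TPM in the second quantification and 13.3 TPM in the first over the shared transcripts. Summed over transcripts, it moved most of the members against the median shift (limma adjusted p 0.19 for a difference from 0). Its protein-coding transcripts held 93.4% of the gene in the first quantification and 63.7% in the second. Map3k7-207, not annotated as protein coding, held 0.71% and 18.6%. The rise is thus one of the sum over all its transcripts, while the mean share of its coding transcripts was lower in the second. The TPM of its coding transcripts alone was not compared, so no rise of the coding RNA can be read from it.

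Most kinases were read mainly from 1 transcript, and in each of the 29 detected genes that leading transcript was protein coding. The 29 genes have 235 annotated transcripts. The leader held at least 90% of the TPM of its gene in 11 genes and at least 50% in 23. Map2k1-201 (98.1% ± 1.16), Mapk3-202 (98.3% ± 2.19), Map3k14-201 (98.9% ± 1.09) and Map3k8-201 (94.0% ± 2.37) are examples of genes read almost wholly from 1 form. In the first quantification, protein-coding transcripts together held a median of 94.6% of the TPM of a gene, and under 80% in 3 genes. These were Map4k2 (55.8% ± 12.0), Map3k11 (63.7% ± 3.50), in which the transcript Map3k11-204, annotated as a target of nonsense-mediated decay, held 23.0% ± 6.78, and Mapk7 (65.5% ± 7.10). In the second quantification the coding shares were 43.1% ± 10.7 for Map4k2, 74.7% ± 1.98 for Map3k11, with 13.7% ± 2.23 for Map3k11-204, and 57.0% ± 4.99 for Mapk7. Map3k7 (TAK1) was also under 80% there, at 63.7% ± 24.0, against 93.4% ± 2.22 in the first. Transcript shares are estimates from short reads that several transcripts share, and those given are from the first quantification unless the second is named.

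In 6 genes the leader held under 50%, and in 3 of them, among which Mapk8 and Map3k12, the leader was another transcript in the second quantification. In Map3k12, Map3k12-201 (23.4%, 26.6%, 40.9% and 48.9% in replicates 1 to 4), Map3k12-207 and Map3k12-208 each have 888 codons. In the second quantification Map3k12-207 led, at 30.2% ± 13.8 against 26.9% ± 12.7 in the first. The lead also differed by library, since Map3k12-208 held 52.8% in replicate 1 and 9.03% in replicate 3, on 128 and 258 counts for the whole gene. In Map3k10 the leader Map3k10-204 (33.3%, 58.2%, 42.0% and 36.7%) has 289 codons, while Map3k10-201, the transcript next in share at 36.9% ± 7.77, has 940. In replicate 1 Map3k10-201 was ahead, with 45.25%. In the second quantification Map3k10-204 held 45.5% ± 7.21 and Map3k10-201 22.7% ± 5.34, without overlap. Another long form, Map3k10-202, has 942 codons and held 7.83% ± 6.05 in the first quantification and 17.9% ± 3.79 in the second. Shares of this gene were not summed by coding length, so the lead of Map3k10-204 is that of a single transcript. In Map4k4 the forms Map4k4-213 (39.7%, 38.4%, 35.8% and 37.9%) and Map4k4-202 (37.0% ± 3.29) have 1221 and 1238 codons and overlapped over the libraries in that quantification. In the second, Map4k4-213 held 41.8% ± 2.65 and Map4k4-202 27.9% ± 2.28, without overlap.

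Both JNK genes have a pair of mutually exclusive coding exons of 72 bases each in the kinase domain, which in human give the forms called α and β. They are shown because the same choice is open to both genes; these and the other exons described from here on were chosen after the shares were seen. Capitals mark the bases at which the 2 exons of a gene differ, position by position.
Mapk9, upstream exon, chr11:49873836-49873907, plus strand: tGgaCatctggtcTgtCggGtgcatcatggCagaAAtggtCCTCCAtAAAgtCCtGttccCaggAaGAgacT
Mapk9, downstream exon, chr11:49874264-49874335, plus strand: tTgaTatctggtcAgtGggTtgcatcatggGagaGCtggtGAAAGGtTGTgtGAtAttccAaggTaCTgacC
Mapk8, upstream exon, chr14:33390673-33390744, minus strand: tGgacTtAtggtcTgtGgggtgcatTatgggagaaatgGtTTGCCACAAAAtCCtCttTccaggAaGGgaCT
Mapk8, downstream exon, chr14:33390242-33390313, minus strand: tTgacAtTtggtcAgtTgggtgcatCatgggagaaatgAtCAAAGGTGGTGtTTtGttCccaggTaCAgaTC
The exons of a pair share 47 of 72 bases in Mapk9 and 45 of 72 in Mapk8. In the second quantification the downstream exon held 85.0% ± 3.24 of Mapk9 and 73.8% ± 2.68 of Mapk8. In the first, transcripts with the downstream exon held 89.5%, 83.5%, 87.1% and 91.8% of Mapk9, against 5.06%, 9.20%, 8.40% and 4.32% for the upstream exon. In Mapk8 the downstream exon held 78.0%, 62.4%, 65.3% and 64.9%, and the upstream exon 18.6%, 20.99%, 16.4% and 17.7%. The downstream exon was thus ahead in each library for both genes. The upstream exon took a larger share in Mapk8 than in Mapk9 in each library, with no overlap.

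The JNK genes also code for a long and a short C-terminal end. The leading transcript of Mapk9, Mapk9-204, a short form, held 40.4%, 34.6%, 38% and 50.1% of the gene, and that of Mapk8, Mapk8-201, a long form, 32.0%, 37.3%, 40.7% and 33.3%. In the second quantification Mapk8-203, a short form, led Mapk8 with 37.99% ± 7.86, against 31.8% ± 9.95 in the first. Over all transcripts of Mapk9, those with 423 codons held 45.8% ± 5.65 and those with 381 codons 48.9% ± 6.62, so neither was ahead by more than the spread. In Mapk8 the form of 427 codons held 35.8% ± 3.92 and that of 384 codons 50.3% ± 10.2. The short form of Mapk8 was ahead in 4 of 4 libraries, with 41.0% against 40.7% for the long form in replicate 3, the smallest difference.

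Mapk14 has a pair of exclusive exons as well, of 80 bases each and 39 of them in common, shown with the same use of capitals.
Mapk14, upstream exon, chr17:28737011-28737090, plus strand: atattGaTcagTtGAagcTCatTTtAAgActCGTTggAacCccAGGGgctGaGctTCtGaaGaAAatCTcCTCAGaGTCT
Mapk14, downstream exon, chr17:28740680-28740759, plus strand: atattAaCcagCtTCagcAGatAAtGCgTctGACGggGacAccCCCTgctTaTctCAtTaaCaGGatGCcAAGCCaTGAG
The downstream exon held 13.8% ± 1.15 of Mapk14 in the second quantification. In the first it held 15.2%, 14.7%, 12.2% and 13.7%, and the upstream exon 84.1%, 83.5%, 84.8% and 86.3%. This was the reverse of the JNK genes in position. In the first quantification this choice had the smallest SD over libraries in percentage points among those described here (1.20 for the upstream exon). In the second the upstream exon held 81.4% ± 4.14 (75.9% to 86.0%), a larger SD than that of the downstream exon of Mapk8 (2.68).

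The start of Mapk14 was less settled. The leading transcript, Mapk14-203, begins at a separate first exon, chr17:28692568-28692682, downstream of the first exon of Mapk14-202 (chr17:28691342-28691855). Its annotated coding region has 283 codons, where Mapk14-202 and Mapk14-201 have 360. RefSeq lists a start at both places on GRCm38.p6, and the 100 bases before each are shown because the shares separate the starts.
Upstream start, chr17:28691242-28691341, plus strand: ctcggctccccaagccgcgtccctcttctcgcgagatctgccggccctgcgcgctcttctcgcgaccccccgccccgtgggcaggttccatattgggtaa
Downstream start, chr17:28692468-28692567, plus strand: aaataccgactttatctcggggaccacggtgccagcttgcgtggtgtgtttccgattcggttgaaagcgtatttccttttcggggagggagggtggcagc
The stretch before the upstream start is 69% G and C with 12 CG dinucleotides, and that before the downstream start 55% with 8. The downstream first exon held 37.7%, 35.1%, 63.1% and 60.3% of Mapk14 in the second quantification, and 59.9%, 57.1%, 71.6% and 70.6% in the first. In the second quantification the upstream first exon was thus ahead in replicates 1 and 2 and behind in replicates 3 and 4, so which start leads in replicates 1 and 2 depends on the method. By either method the downstream start held a larger share in replicates 3 and 4 than in replicates 1 and 2.

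Cassette exons, included or skipped whole, divided several upstream kinases. In Map3k7 (TAK1) an exon of 81 bases, chr4:31994874-31994954, was in transcripts that held 40.3% ± 12.3 of the gene in the second quantification, and 52.4%, 49.96%, 42.4% and 57.2% in the first. Its plus-strand sequence was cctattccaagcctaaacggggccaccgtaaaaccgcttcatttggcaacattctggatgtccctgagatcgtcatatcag. In Map2k7 an exon of 48 bases (chr8:4240688-4240735) was in transcripts that held between 21.7% and 51.1% in the second quantification, and between 18.3% and 44.0% in the first. In Map4k3 an exon of 63 bases (chr17:80629286-80629348) had 47.4% ± 4.41 in the second and 38.1% ± 5.61 in the first. In Map3k4 an exon of 156 bases (chr17:12242650-12242805) had 24.7% ± 11.0 in the second and 37.1%, 24.9%, 11.5% and 12.5% in the first, the widest spread between libraries of these 4 exons relative to the mean. Map3k20, whose long and short forms are known in human as ZAKα and ZAKβ, had 58.5% ± 4.05 in the form of 802 codons and 39.5% ± 3.20 in that of 454, and the long form was ahead in 4 of 4 libraries.

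**Figure D5:**
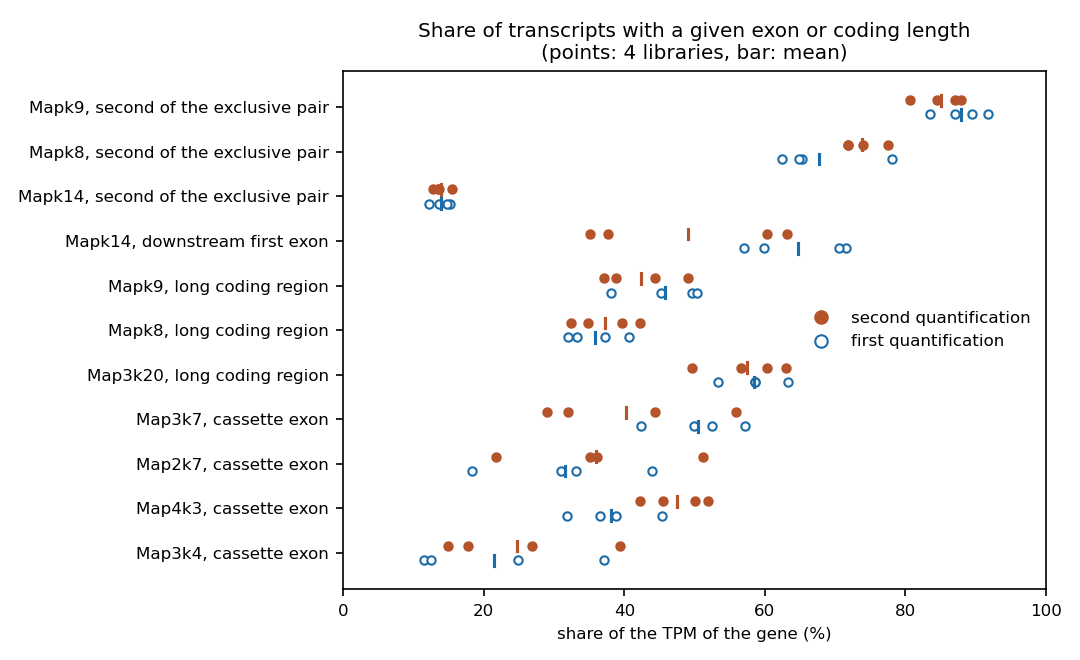
Share of the TPM of a gene held by transcripts with a given exon, first exon or coding length, in the second quantification (filled points) and the first (open points); short bars are means over the 4 libraries. The exon coming later in the gene averages 85.0% in the second and 87.9% in the first for Mapk9, and 13.8% and 14.0% for Mapk14, while the downstream first exon of Mapk14 averages 49.1% in the second and 64.8% in the first.

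Genes that act with these kinases were read from lists fixed for this work, with variable genes called by the same edgeR test and read against the 2.61% of all genes. Of 12 cascade kinases with other names 8 were detected and 0 of 11 tested were called, with 1 at an unadjusted p under 0.05. Taok3, a MAP3K, had 88.7, 88.0, 80.8 and 84.5 TPM and the RAF kinase Araf 36.6, 44.9, 53.8 and 53.0 TPM. Of 26 scaffolds and activators 23 were detected and 2 of 23 tested were called, Gadd45a and Gadd45g, small proteins that bind MEKK4. Gadd45a had 76.7, 87.2, 29.9 and 65.4 TPM (edgeR adjusted p 0.012) and Gadd45g 20.7, 11.8, 5.24 and 4.50 TPM (0.0032). The highest of that list were the GTPase Cdc42, with 703, 633, 807 and 760 TPM, and the adaptor Grb2, with 268, 505, 669 and 724 TPM. In CPM, which rests on the counts that were tested, Grb2 differed less, with 379, 506, 473 and 525.

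Downstream, 10 of 11 substrate kinases were detected and 0 of 10 tested were called, with 0 also at an unadjusted p under 0.05. Mapkapk2 (MK2), the p38 substrate that controls cytokine mRNA stability, had 157, 259, 185 and 297 TPM, and Rps6ka1, an ERK-activated ribosomal S6 kinase, 62.1, 64.7, 64.9 and 62.3 TPM. Of 16 transcription factor substrates all were detected and 1 was called, Fos, with 69.6, 56.4, 50.03 and 128 TPM (edgeR adjusted p 0.017). Egr1 and Ddit3 were the highest of them, Egr1 with 391, 365, 233 and 549 TPM and Ddit3 with 220.1, 442, 293 and 384 TPM.

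Among the negative regulators, 3 genes varied between libraries beyond the trend, Dusp4, Dusp5 and Spred2. Of 10 phosphatases of the DUSP family 9 were detected and 2 of 9 were called, Dusp4 with 8.78, 12.4, 1.43 and 13.5 TPM (edgeR adjusted p 1.3e-07) and Dusp5 with 13.8, 3.79, 7.29 and 12.1 TPM (0.0059). Dusp1, which dephosphorylates p38 and JNK, was the highest with 346, 299, 170 and 453 TPM, followed by Dusp2 with 169, 120, 126 and 205 TPM. The median CV in CPM was 29.7% over the 9 phosphatases, 12.9% over the 36 kinases and 15.8% over all tested genes; no test of that difference was made. Of 12 other negative regulators 9 were detected and 1 of 11 tested was called, Spred2, an inhibitor of RAF activation, with 12.4, 8.35, 3.76 and 6.41 TPM (edgeR adjusted p 0.032). The highest of these were Spred1, with 83.3, 63.6, 45.8 and 42.8 TPM, and the phosphatase Ppm1a, with 55.7, 53.1, 55.2 and 53.99 TPM.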

How the data were processed

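PolyA RNA-seq of 4 BMDM libraries was read from tables deposited by the authors; per the deposited records they use mm10 and GENCODE M21, and the programs are not given in the sources used here. Per the file headers the gene tables hold an expected count, not normalised, and TPM, which the authors scaled to the same sum in each library. The authors also deposited, in percent, how much of a gene each transcript holds. The other deposited quantification holds an estimated count and TPM per transcript; 141767 transcripts are in both.

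Expected counts were rounded. Analyses used R 4.3.3, edgeR 4.0.16 (filterByExpr, TMM; deviance against the dispersion trend with 3 degrees of freedom, common biological CV 22.4%; quasi-likelihood test), DESeq2 1.42.0, limma 3.58.1 (pseudocount 0.1), and Python 3.11.15 with pandas 2.3.3. P-values were adjusted by Benjamini-Hochberg over all genes tested. On simulated data, the variable-gene test recovered 82% of 200 genes changed 4-fold, the read-file test 91% and the quantification test 100%. Changes smaller than 4-fold were not simulated, so these rates do not apply to the smaller differences of most kinases. The quantification test was simulated without the common shift between quantifications that the data show.

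The members and lists were chosen with earlier results of these data known. Values per library are given for the 3 highest members of each tier, the members that passed a test or else the 3 with the lowest p, and those whose leading transcript held under 50% or differed between quantifications; from the lists, for the 2 highest genes and each gene called. Some members and list genes, counted in the totals, are not reported here by name. Alternatives were normalisation, filters, pseudocounts, the tool, the quantification and leaving out each library.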

Additional observations from a re-analysis of the deposited data

Results flagged for a closer look

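In 94 sets of 4 values (member levels, transcript shares, tier and module summaries), the gap of the highest or lowest library to its nearest neighbour was compared with the range of the 4, and a ratio above Dixon's critical value for 4 values marked a library that stood apart. This held for 4 sets, where chance gives about 1 in 20. Map3k4 had 4.36 TPM in replicate 1 and 6.65 to 7.12 TPM in the others (ratio 0.830). The share of Map3k3-201 was 95.3% in replicate 3 and 97.8% to 98.2% in the others (0.865). The share of the short coding form of Map3k20 was 34.7% in replicate 4 and 40.5% to 41.4% in the others (0.857). The MAP2K median was 4.55 on the log2(TPM + 0.1) scale in replicate 4 and 4.38 to 4.41 in the others (0.831).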

How the results depend on the processing

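No paired analysis was possible because the libraries form 1 group, which leaves no groups to pair; the comparison of the 2 quantifications was made within each library. The number of detected kinases ran from 23 at 5 TPM to 34 at 0.5 TPM, against 29 at 1 TPM. Variable genes over all numbered 305, and 135 to 219 with a library left out, the lowest without replicate 1; no kinase was called in any setting. For the read-file split 0 genes were called, but 103 by DESeq2, 35 without the low-count filter and 0 to 13 with a library left out, with 13 without replicate 2 and 2 without replicate 3. No kinase was among these. Between quantifications, dropping the low-value filter gave 2146 genes in place of 1289 and 1 kinase, Mapk12, which is at 0 in replicates 1 and 2 of the first.

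Tier medians of log2(TPM + 0.1) moved with the summary. For MAPK, 3.11 became 5.98 over detected members, 1.70 as a mean, 3.28 when scaled to protein-coding genes and 2.87 in the second quantification. For MAP2K, 4.43 became 4.32 as a mean, 4.60 scaled and 4.14 in the second quantification. For MAP3K, 2.29 became 3.26 over detected members and 1.79 as a mean, and for MAP4K, 2.50 became 3.28 and 2.91. The order of the tiers therefore depends on whether undetected members count and on the summary used. As a mean MAPK was the lowest tier, where by the median it lay above MAP4K and MAP3K.

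Genes whose leader held at least 50% numbered 18 by the second quantification and 21 to 23 with a library left out, against 23. Alternatives for exon shares were added after seeing the data. Of the values for single genes, 213 stayed within 1 SD or on their side of the threshold and 24 moved, each in the second quantification or when scaled to protein-coding genes. Leaving out a library shifts a mean level or mean share by under 1 SD whatever the values. Those alternatives could therefore not move such a mean, and their part of the 213 says nothing about stability. Depth limits the members near 0: a gene without a count could stand at up to 0.129 CPM in replicate 2, and Map2k6 and Mapk11 rest on few counts.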
